A study of Mus musculus with 28 samples.

Results

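Ovaries of Chek2-/- and wild-type females that received a sham treatment and no radiation were compared by bulk RNA sequencing, with 6 libraries of each genotype. These 12 libraries, chosen by their genotype and treatment labels, are 12 of the 28 samples of the series. The other bulk libraries are 6 wild-type and 6 Chek2-/- ones taken 6 h after 0.5 Gy, and the remaining 4 samples are single-cell libraries, 1 for each genotype and treatment. The study obtained C57BL/6J mice, but the sources used here do not tie the wild-type females to that stock. Chek2-/- mice carried Chek2tm1b(EUCOMM)Hmgu, a germline allele that all cells share and that came from a knockout programme. Females were 7 to 9 days old, no group carried another allele or agent, and each library held RNA of a pair of ovaries. The comparison asks how ovaries without CHEK2 differ before any induced damage. The sources used here do not say whether wild-type animals were littermates of the mutants or how often the allele was crossed to C57BL/6J, and genotype and strain history cannot be told apart in this design.

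CHEK2 is a kinase that is activated by ATM after DNA double-strand breaks and that phosphorylates p53 and its relative TAp63, the factor through which damaged primordial oocytes are removed. A juvenile ovary holds many primordial follicles, a first cohort of growing oocytes, granulosa cells, stroma and vessels. EUCOMM alleles were made in embryonic stem cells of the C57BL/6N substrain, which differs from C57BL/6J at a modest number of loci. Best known are Nnt, the mitochondrial nicotinamide nucleotide transhydrogenase, part of which is deleted in C57BL/6J, and point changes in Crb1 and Cyfip2 in C57BL/6N.

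Chek2 (ENSMUSG00000029521, chr5:110839979-110874145, plus strand, GRCm38) checks the labels. The study told the alleles apart by PCR with designed oligos, of which the wild-type pair and the reverse primer of the mutant reaction are shown because they define the 2 groups.
wild-type forward: cttgtcctgctggactcaca
wild-type reverse: gcaaccgttacctaccctga
mutant reverse: cagcgcttatcccaacact
In CPM, read counts scaled to the normalised size of each library, Chek2 was at 19.8 in the lowest wild-type library, 22.5 at the median and 24.6 in the highest. The same 3 values were 2.88, 3.72 and 4.44 CPM in Chek2-/-. The groups did not overlap, and Chek2 was lower in Chek2-/- by a log2 fold change of -2.58 ± 0.10 (SE worked back from the test statistic, n = 6 and 6; edgeR quasi-likelihood test, Benjamini-Hochberg adjusted p = 7.45e-15). The remaining 602 counts over the 6 mutant libraries show that RNA assigned to the gene was still present. In the single-cell libraries, Chek2 had 10.8 CPM of UMIs (unique molecular identifiers, 2153 in all) in wild-type and 3.58 CPM (648) in Chek2-/- without radiation, a ratio of 0.33 (95% counting interval 0.302 to 0.361).

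Libraries held 19768533 to 32605519 counts in wild-type and 25600866 to 28398492 in Chek2-/-. Several stood apart. Chek2-/- replicate 6 and the irradiated Chek2-/- library with the same number had 153 genes at no more than 1/2 of the lowest of the other 22 bulk libraries, against at most 1 gene for any other same-numbered pair. Xist, the RNA that silences an X chromosome and needs more than one X to be made, was at 0.423 CPM in Chek2-/- replicate 6 and at 0.569 CPM in its irradiated namesake, with 712 to 1376 CPM in the other 22. In Chek2-/- replicate 6, X-linked genes that are read from both X chromosomes were also lowest of the 12 libraries: Kdm6a at 62.4, Kdm5c at 163 and Eif2s3x at 199 CPM, against 78.9, 205 and 282 CPM in the lowest wild-type library. The Y-linked genes Ddx3y and Eif2s3y had 0.768 and 0.96 CPM there, no count in non-irradiated wild-type and 0 CPM in the irradiated Chek2-/- library numbered 6. Amh, the anti-Müllerian hormone of growing follicles, was at 31.2 CPM, the oocyte growth factor Bmp15 at 8.26 and the hedgehog-binding protein Hhip at 0.154, where the lowest wild-type libraries had 153, 83.5 and 5.69. Kidney genes were highest in that library, with Kap, a kidney androgen-regulated protein, at 793 CPM, Napsa at 167 and Umod, uromodulin, at 72. Napsa was also at 12.8 CPM in irradiated wild-type replicate 3 and at 3.49 in irradiated Chek2-/- replicate 2. Chek2-/- replicate 5 was high in red blood cell genes, whose 9 tested members summed to 10539 CPM, against 223 to 929 CPM in wild-type. Wild-type replicate 5 had 28.8 CPM of the interferon-induced gene Ifit3, with a wild-type median of 2.34. Finally, wild-type replicates 1 to 4 differed from wild-type replicates 5 and 6 in both treatments. Kap had no count in any of those 8 libraries and was present in all others, and a term for these replicates reached an adjusted p of 0.05 for 1378 genes, or 5.14% of those tested. The split was noticed in these same data before the term was fitted, so its adjusted p is not at its nominal level. The labels give no reason for the split, and its cause was not tested.

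**Figure D1:**
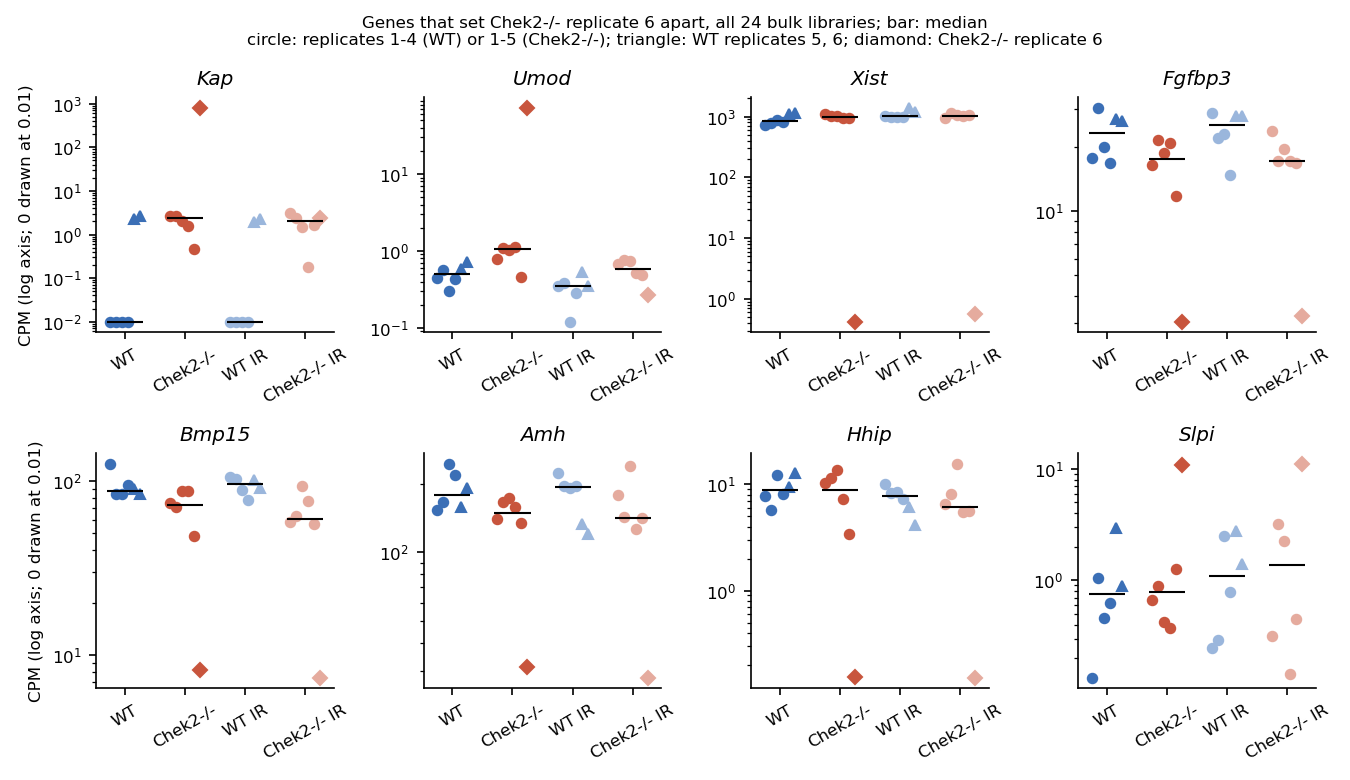
Level in CPM on a log axis of 8 genes in all 24 bulk libraries by genotype and treatment (IR, irradiated), with zeros drawn at 0.01 CPM and a bar at each group's median. Chek2-/- replicate 6, the diamond, is high in Kap and Umod in the non-irradiated group alone, and its Xist (0.423 CPM), Bmp15 (8.26), Amh (31.2) and Hhip (0.154) lie far below the others together with the irradiated library of the same number.

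Of 26790 genes tested, 160 were higher and 51 lower in Chek2-/- with an adjusted p up to 0.05 and at least a 2-fold change, the threshold used throughout. These are 0.597% and 0.190% of the genes, and 12 of the 211 lay within 0.1 of the log2 limit. At any fold change, 836 genes (3.12%) were higher and 594 (2.22%) lower. In 862 genes (3.22%) the 6 and 6 libraries did not overlap, among them 45 of the 160 higher and 38 of the 51 lower genes. With Chek2-/- replicate 6 left out, 83 genes were higher (0.312% of 26617) and 46 lower (0.173%), and 65 and 40 of them were in the first lists. With a term for wild-type replicates 1 to 4, 13 genes were higher (0.0485%) and 28 lower (0.105%), of which 11 and 25 were in the first lists. Under this term the wild-type reference is the fitted level of replicates 5 and 6, with a single shift estimated over both treatments. Fewer libraries then set the reference and the test is less precise. A lost adjusted p therefore does not by itself show that the fold change fell. Against wild-type replicates 5 and 6 alone, 5 genes of the first list of higher ones and 22 of the lower ones passed.

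**Figure D2:**
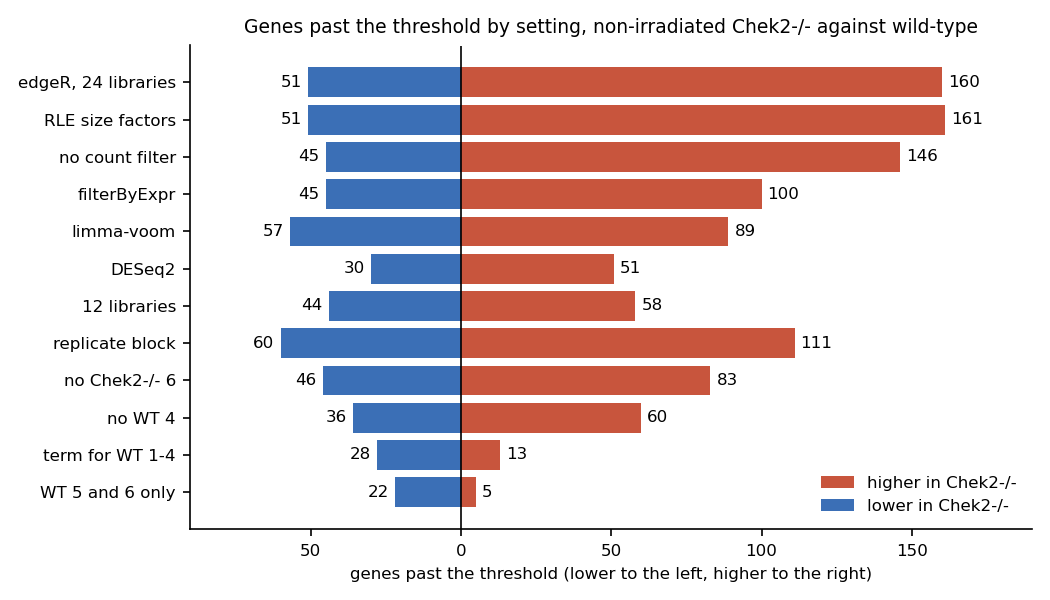
Number of genes past the threshold, higher in Chek2-/- to the right and lower to the left, under 12 ways of processing (WT, wild-type). The lower genes run from 60 to 22 and the higher ones from 161 to 5.

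The irradiated ovaries came from other animals and share no library with the sham groups. The comparisons are still not wholly independent. The wild-type split recurred in both treatments, and both Chek2-/- libraries numbered 6 had 153 low genes in common. In irradiated ovaries 266 genes (0.993%) were higher and 373 (1.39%) lower in Chek2-/-, a comparison that also takes in genotype differences in the response to radiation. With the term for wild-type replicates 1 to 4 there were 109 (0.407%) and 244 (0.911%). Of the 51 genes lower without radiation, 35 were also past the threshold and lower after it, and 48 had the same sign. Of the 160 higher genes, 26 were also higher past the threshold, 1 was lower past it, and 120 had the same sign. In all of 4 fits, 30 genes passed: the main one, the one without Chek2-/- replicate 6, the one with the term for wild-type replicates 1 to 4, and the irradiated pair. They are 25 lower and 5 higher genes, with 14 coding for protein, and none had overlapping groups. They were picked after the values were seen, and the same direction in every fit was a condition.

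**Figure D3:**
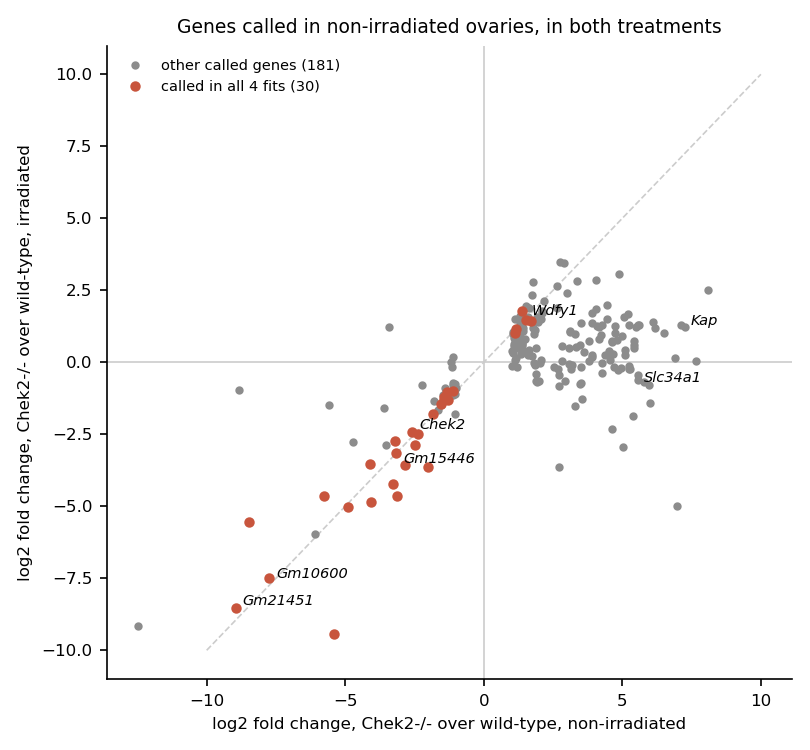
Log2 fold change of Chek2-/- over wild-type without radiation (horizontal axis) and after 0.5 Gy (vertical axis) for the 211 genes called without radiation, with the line of equal values dashed. The 30 genes called in all 4 fits have the same sign on both axes because that was a condition of their selection. Wdfy1 (1.51 and 1.48) and Gm15446 (-3.17 and -3.14) lie near the line, Gm13301 (-5.40 and -9.45), Gm16867 (-8.47 and -5.53) and Adamts18 (-2.01 and -3.62) farther from it, and Kap (7.26 and 1.21) and Slc34a1 (5.58 and -0.60) have no call after radiation.

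Part of the called genes lay close together. By GRCm38 coordinates from GENCODE M21, 27 of the 82 called genes without overlap that have a position there (1 more has none) formed 7 runs of at least 2 genes with no gap over 0.5 Mb between called genes, and 5 of these runs held 21 of the 30 genes. The runs were defined after the values were seen.

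One run lies near Chek2 itself. Gm15446, a predicted protein-coding gene at chr5:109923400-109943936 and inside the 5 Mb around Chek2, had 19.7, 23.5 and 28.2 CPM in the lowest, median and highest wild-type library. It had 2.53, 2.60 and 2.91 CPM in Chek2-/-. Its log2 fold change of -3.17 ± 0.10 had the smallest adjusted p of all genes, 1.9e-16, and was -3.14 in irradiated ovaries. The noncoding RNA 1010001B22Rik at chr5:109995511-109996398 lay between 0.895 and 1.62 CPM in wild-type and between 0.0384 and 0.211 in Chek2-/- (log2 fold change -3.19, adjusted p = 0.000134). Both were also low in the single-cell library: 1010001B22Rik had 1034 UMIs in wild-type and 1 in Chek2-/-, and Gm15446 had 2668 and 217. Of 260 genes tested within 5 Mb of Chek2, 4 passed the threshold (1.54%, against 0.788% of all genes), Chek2 included. The fourth, Gm9936, was higher but had only 2 counts in all wild-type libraries and 20 in Chek2-/-, a ratio of 9.42 (95% counting interval 2.29 to 83.2), and in irradiated ovaries its adjusted p was 0.564. At any fold change, 16 of the 260 genes (6.15%, against 5.34% of all genes) passed the adjusted p, 9 lower and 7 higher, and 4 passed it with the term for wild-type replicates 1 to 4.

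Genes known to differ between the substrains form a list of 8, of which 7 could be matched. Nnt was at 26.6, 33.6 and 36.4 CPM in wild-type and at 58.5, 63.8 and 78.3 in Chek2-/-, with no overlap (log2 fold change 1.04 ± 0.09, adjusted p = 1.05e-07). The value was 1.04 in irradiated ovaries as well, and 0.92 with the term for wild-type replicates 1 to 4, under the fold limit with an adjusted p of 2.31e-05. In the single-cell libraries, in contrast, Nnt had 5.77 CPM of UMIs in wild-type and 5.18 in Chek2-/- (ratio 0.897, interval 0.822 to 0.979), 1 library of 4 pooled females for each group. Wdfy1, an endosomal adaptor of Toll-like receptor signalling, was at 20.4, 22.6 and 24.8 CPM in wild-type and at 58.7, 63.9 and 70.4 in Chek2-/- (log2 fold change 1.51 ± 0.07, adjusted p = 2.52e-13). Its single-cell ratio was 2.59 (2.46 to 2.71). Entpd4, a Golgi nucleotidase, was at 127 to 163 CPM in wild-type and 62.2 to 74.2 in Chek2-/- (log2 fold change -1.12, adjusted p = 4.49e-11).

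The other substrain genes were under the fold limit. Ide, the insulin-degrading enzyme, had a log2 fold change of -0.78 (adjusted p = 0.00367). Its copy number is known to vary within C57BL/6J colonies, and its level in wild-type was not uniform: over both treatments 2 wild-type libraries had 144 to 148 CPM, 4 had 202 to 222 and 6 had 256 to 293. The 12 Chek2-/- libraries all had 129 to 144 CPM. Fgfbp3, its neighbour on chromosome 19, had 16.8 to 30.3 CPM in wild-type and 3.04 to 21.5 in Chek2-/-, with a log2 fold change of -0.59 that missed the threshold (adjusted p = 0.346). Its lowest value was that of Chek2-/- replicate 6, and the irradiated library of that number had 3.22 CPM, while the other 22 libraries had at least 11.7. Crb1, a retinal polarity gene, was at -0.69 (adjusted p = 0.0126, and 0.185 with the term for wild-type replicates 1 to 4) and missed the test in irradiated ovaries (0.17, adjusted p = 0.573), and Cyfip2, an actin regulator, was at 0.01 (adjusted p = 0.973).

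**Figure D4:**
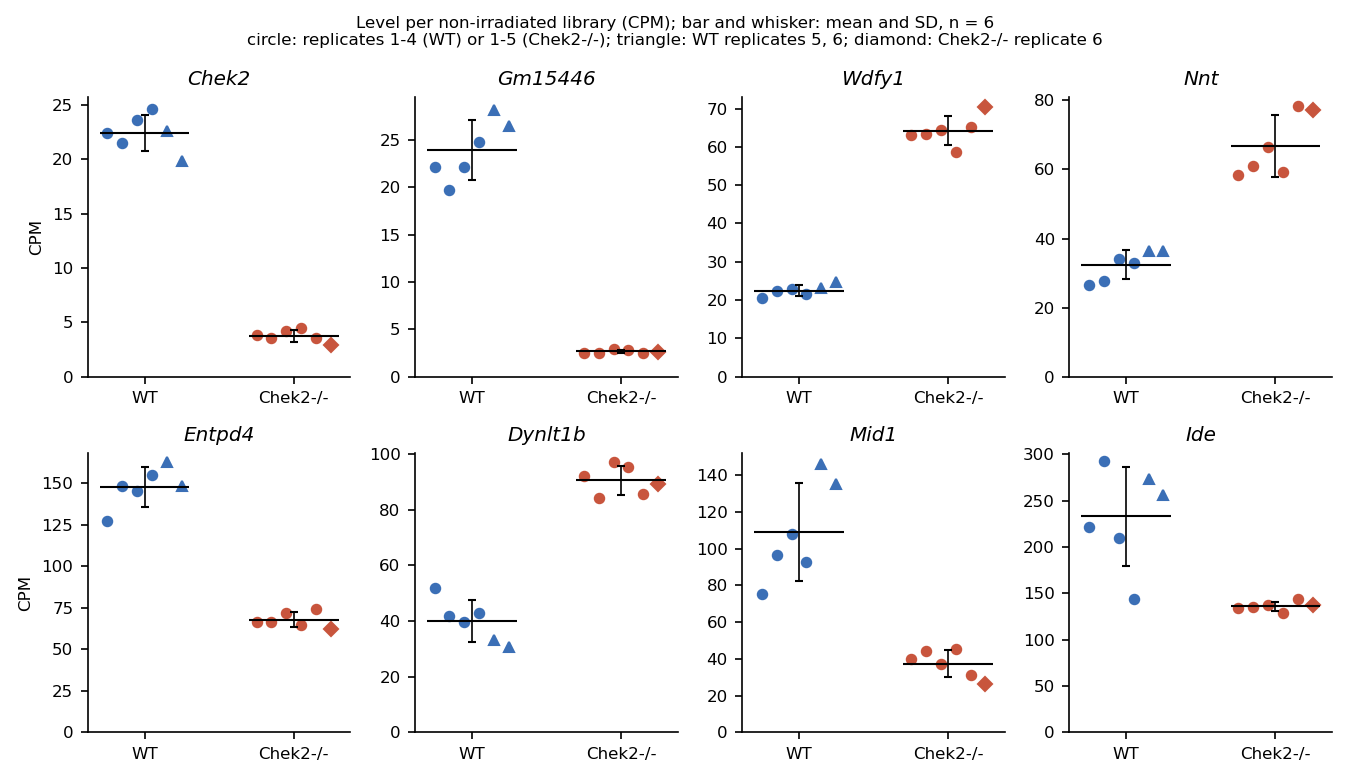
Level in CPM of 8 genes in each non-irradiated library, with the mean and SD of 6 libraries (WT, wild-type). For Ide the nearest libraries of the groups are both at 144 CPM as rounded, and the groups do not overlap in the other panels. Ide spreads over 144 to 293 CPM in the wild-type panel and 129 to 144 in Chek2-/-.

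Entpd4 belongs to a run on chromosome 14 (chr14:69289344-69503362) in which 7 of 8 tested genes were lower past the threshold, and all 7 also were with the term for wild-type replicates 1 to 4 and after radiation. Gm21451, a pseudogene, had 11.6 to 18.1 CPM in wild-type and at most 0.155 in Chek2-/-, with 2173 and 4 counts (ratio of wild-type to Chek2-/- 576, counting interval 225 to 2118). Gm16867, a predicted protein-coding gene, had 27.3 to 34.0 CPM in wild-type, and in Chek2-/- no more than 0.497, the value of replicate 3. Synb, syncytin B, a placental fusion protein of retroviral origin, fell from a median of 42.4 to 16.0 CPM (log2 fold change -1.34, adjusted p = 9.31e-07), and the noncoding RNA Gm16677 from 21.9 to 8.89 (-1.45, adjusted p = 1.43e-07). Gm38378 and the antisense transcript Gm27221, with wild-type means of 0.745 and 0.871 CPM, were lower with log2 fold changes of -3.13 and -2.83. The sources used here do not say whether counting used strand, so reads of an antisense transcript and its partner may not be told apart. Genes that are copies of one another can share reads, so how counts were divided between Entpd4, Gm21451 and Gm16867 is uncertain. The single-cell libraries did not show a loss of that size for Gm16867, with 832 and 640 UMIs (ratio 0.844, interval 0.76 to 0.937), or for Synb, with 343 and 351. Entpd4 had none in either library and cannot be compared there.

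Another run, on chromosome 4 (chr4:41893388-42242685), held 17 tested genes, of which 7 were lower past the threshold. Gm10600 had 5.46 to 10.2 CPM in wild-type and at most 0.117 in Chek2-/-, with 1146 and 5 counts (ratio 243, counting interval 104 to 751). The pseudogene Gm5859 had 4.93 to 12.3 CPM against at most 0.553 (log2 fold change -4.89, adjusted p = 1.58e-09). Gm17167 went from a median of 23.2 to 8.82 CPM (-1.38, adjusted p = 8.53e-10), while Gm13301 and Gm17081 had at most 4.22 and 1.86 CPM in wild-type and at most 0.231 and 0.115 in Chek2-/-. Reads could be shared here too if these genes have near copies, which was not tested. In the single-cell libraries Gm10600 had 3815 UMIs in wild-type and 2500 in Chek2-/- (ratio 0.719, interval 0.683 to 0.756), far from the ratio in bulk.

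On chromosome 17 (chr17:6430112-6467022), in contrast, genes were higher. Dynlt1b, a dynein light chain, had 30.6 to 52.0 CPM in wild-type and 84.1 to 96.9 in Chek2-/- (log2 fold change 1.18 ± 0.10, adjusted p = 2.56e-08), and the pseudogene Tmem181b-ps 25.9 to 29.7 and 63.9 to 84.7 (1.38 ± 0.06, adjusted p = 6.66e-14). Their near-identical relatives moved less: Tmem181a, a membrane protein, by 0.67 (adjusted p = 8.86e-09), Dynlt1c by 0.33 (adjusted p = 0.00384) and Dynlt1a by -0.39 (adjusted p = 0.0413). Reads can be split between such copies. In the single-cell libraries the ratio was 1.71 (1.38 to 2.12) for Dynlt1b, 1.04 (0.994 to 1.09) for Tmem181a and 0.51 (0.442 to 0.587) for Dynlt1c, the other way from bulk.

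Mid1, a microtubule-associated ubiquitin ligase whose mouse gene crosses the boundary of the pseudoautosomal region, leads a run on the X chromosome (chrX:169685199-170005736) with 4 of 5 tested genes lower. Mid1 was at 75.6, 102 and 146 CPM in wild-type and at 26.5, 38.6 and 45.6 in Chek2-/- (log2 fold change -1.54 ± 0.16, adjusted p = 9.97e-07). It was lower still relative to wild-type replicates 5 and 6, whose mean was 140 CPM against 93.2 in replicates 1 to 4. In the single-cell libraries its ratio was 0.55 (0.524 to 0.576). Chek2-/- replicate 6 had the lowest Mid1 value, and without it the log2 fold change was -1.46.

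Single genes elsewhere were also among the 30. Lrmda, a melanocyte differentiation gene on chromosome 14, was at 1.19 to 2.15 CPM in wild-type and 0.037 to 0.307 in Chek2-/- (log2 fold change -3.27, adjusted p = 1.95e-06), with a single-cell ratio of 0.608 (0.542 to 0.681). Adamts18, a secreted metalloprotease, had a log2 fold change of -2.01 (adjusted p = 0.00173) and a single-cell ratio of 0.35 (0.224 to 0.533). Cyp2a22, a cytochrome P450, had 27 counts in wild-type and 1 in Chek2-/- (ratio 28.7, counting interval 4.72 to 1173). The pseudogene Nlrp4g was at 35.3 to 47.8 CPM in wild-type and 6.61 to 22.9 in Chek2-/- (-1.29, adjusted p = 0.00263). Vgf, a secreted neuropeptide precursor, was higher, at 0.661 to 1.78 CPM against 1.88 to 6.58 (1.72 ± 0.27, adjusted p = 0.000749), and so was the unclassified transcript Gm37416 (1.13, adjusted p = 3.33e-05). Pisd-ps1, a phosphatidylserine decarboxylase pseudogene, went from a median of 39.1 to 80.9 CPM (1.07, adjusted p = 2.27e-08) and is not among the 30, since it missed the fold limit after radiation with 0.99. Gm42427 was at 122 to 186 CPM in wild-type and 232 to 560 in Chek2-/- (1.19, adjusted p = 0.000332), the highest value being that of replicate 6. It is not among the 30, with a log2 fold change of 0.97 without replicate 6 and 0.74 after radiation. Transcripts of chromosome 7, Gm38340 and Gm37827, and the X-linked testis gene Tsga8 were higher by 1.29, 1.13 and 1.79, and lost their adjusted p with the term for wild-type replicates 1 to 4 (0.09, 0.181 and 0.14). After radiation, in the fit without the term, all were again higher past the threshold, by 1.38, 1.51 and 2.79 (adjusted p = 0.000138, 3.32e-05 and 1.14e-05).

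Of the 24 gene lists, that of immediate early genes held the most members past the threshold. These genes, which code mainly for transcription factors of the FOS, JUN and EGR families, are switched on within minutes by growth factors, calcium, stress or tissue handling. All 18 members had a log2 fold change above 0, where 13843 of all 26790 genes did, and the median was 0.62 against 0.01 over all genes. Past the threshold 5 were higher, where 0.597% of all genes were. At any fold change 10 were higher, where 3.12% of all genes were. The median was 0.63 without Chek2-/- replicate 6 and 0.53 with the term for wild-type replicates 1 to 4, under which Egr2 was the 1 member past an adjusted p of 0.05. In irradiated ovaries the median was 0.26.

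Promoters of Egr2 and Fos, and of their relative Egr4 outside the list, are shown as examples among the higher genes. Egr1, Egr3 and Atf3 were also higher past the threshold and are not shown, so the 3 do not stand for the list. The RefSeq sequence of build GRCm38.p6 runs from 250 bases before to 50 bases after a start site. For Egr2 the window of most matches is shown. Capitals mark 2 elements that mediate induction of such genes. They are the CArG box bound by SRF, searched as its usual consensus, and the letters TGACGT, on either strand, of the cAMP response element.
Egr2 (chr10:67537619-67537918, plus strand): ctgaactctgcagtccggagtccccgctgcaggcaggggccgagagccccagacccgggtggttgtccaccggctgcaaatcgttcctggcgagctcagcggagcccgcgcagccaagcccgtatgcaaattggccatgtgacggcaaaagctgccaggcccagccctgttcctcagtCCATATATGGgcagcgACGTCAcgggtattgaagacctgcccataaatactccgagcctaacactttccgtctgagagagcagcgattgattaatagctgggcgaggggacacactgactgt
Fos (chr12:85473640-85473939, plus strand): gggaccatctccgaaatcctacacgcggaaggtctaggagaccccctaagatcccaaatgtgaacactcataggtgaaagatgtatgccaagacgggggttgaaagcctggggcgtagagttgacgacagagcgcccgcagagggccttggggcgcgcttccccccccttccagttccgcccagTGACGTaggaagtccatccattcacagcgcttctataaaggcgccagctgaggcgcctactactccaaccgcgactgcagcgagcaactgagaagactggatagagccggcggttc
Egr4 (chr6:85513540-85513839, minus strand): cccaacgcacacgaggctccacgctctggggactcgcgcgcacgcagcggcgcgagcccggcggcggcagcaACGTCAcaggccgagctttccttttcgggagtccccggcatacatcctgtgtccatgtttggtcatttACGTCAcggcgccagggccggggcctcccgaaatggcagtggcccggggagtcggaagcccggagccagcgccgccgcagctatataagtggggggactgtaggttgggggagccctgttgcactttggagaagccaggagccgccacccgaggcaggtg
Of 14 listed genes with a promoter in the table, 2 held a CArG box and 5 held TGACGT in at least 1 window, against 1.81% and 8.37% of all 27025 genes counted the same way, and 1.63% and 7.51% of the 32851 single windows. A match here is a description of letters and not a measured site.

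Egr2, a zinc finger factor, was at 5.21, 6.50 and 7.08 CPM in wild-type and at 8.77, 15.4 and 19.6 in Chek2-/- (log2 fold change 1.24 ± 0.19, adjusted p = 0.000701, and 0.0328 with the term for wild-type replicates 1 to 4), and its log2 fold change was 0.61 in irradiated ovaries. Egr4, which was outside the list, had 17 counts in wild-type and 145 in Chek2-/-, with no overlap (2.99 ± 0.50, adjusted p = 0.00159, and 0.0835 with that term). Fos was at 8.47, 20.7 and 36.9 CPM in wild-type and at 29.0, 52.1 and 91.4 in Chek2-/- (1.38 ± 0.34, adjusted p = 0.0208). The groups overlapped for Fos, and wild-type replicates 5 and 6 had a mean of 33.3 CPM against 15.7 in replicates 1 to 4. With the term for these replicates the log2 fold change of Fos was 1.04 (adjusted p = 0.348). Egr1 was at 81.9 to 158 and 164 to 395 CPM (1.16, adjusted p = 0.00409), Egr3 had a log2 fold change of 1.27 (adjusted p = 0.0137) and the stress factor Atf3 one of 1.15 (adjusted p = 0.00371). Below the fold limit, Ier2, Zfp36 and Junb were higher by 0.54, 0.78 and 0.96 (adjusted p = 0.00409, 0.00632 and 0.00735).

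Further inducible genes outside the list passed the threshold. The orphan nuclear receptors Nr4a2 and Nr4a3 were higher by 1.08 and 1.20 (adjusted p = 0.0018 and 0.0304), and Arc, the activity-regulated synaptic protein, by 1.26 (adjusted p = 0.00944). The chemokine Cxcl1 was at 2.64 to 7.90 CPM in wild-type and 10.3 to 48.0 in Chek2-/- (1.96, adjusted p = 0.00442). The EGF family ligand Ereg, the cytokine Il11 and the hyaluronan synthase Has1 were higher by 1.39, 1.09 and 1.26 (adjusted p = 0.0213, 0.0355 and 0.0329). With the term for wild-type replicates 1 to 4, none of these 7 genes had an adjusted p under 0.101. Their log2 fold changes were then 0.95 for Nr4a2, 0.49 for Nr4a3, 0.99 for Arc, 1.46 for Cxcl1, 0.98 for Ereg, 0.95 for Il11 and 0.67 for Has1, so that Nr4a3 and Has1 moved most in proportion. In the single-cell libraries the direction was not shared: the ratio of Chek2-/- to wild-type was 0.655 (0.651 to 0.659) for Fos, 0.782 (0.777 to 0.788) for Egr1, 0.971 (0.917 to 1.03) for Egr2 and 0.469 (0.448 to 0.491) for Nr4a2, but 2.82 (2.38 to 3.34) for Egr4, 2.77 (2.36 to 3.27) for Arc, 1.87 (1.73 to 2.02) for Cxcl1 and 1.36 (1.29 to 1.44) for Atf3. Tissue was dissociated for those libraries. The part of tissue handling in either set was not tested.

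**Figure D5:**
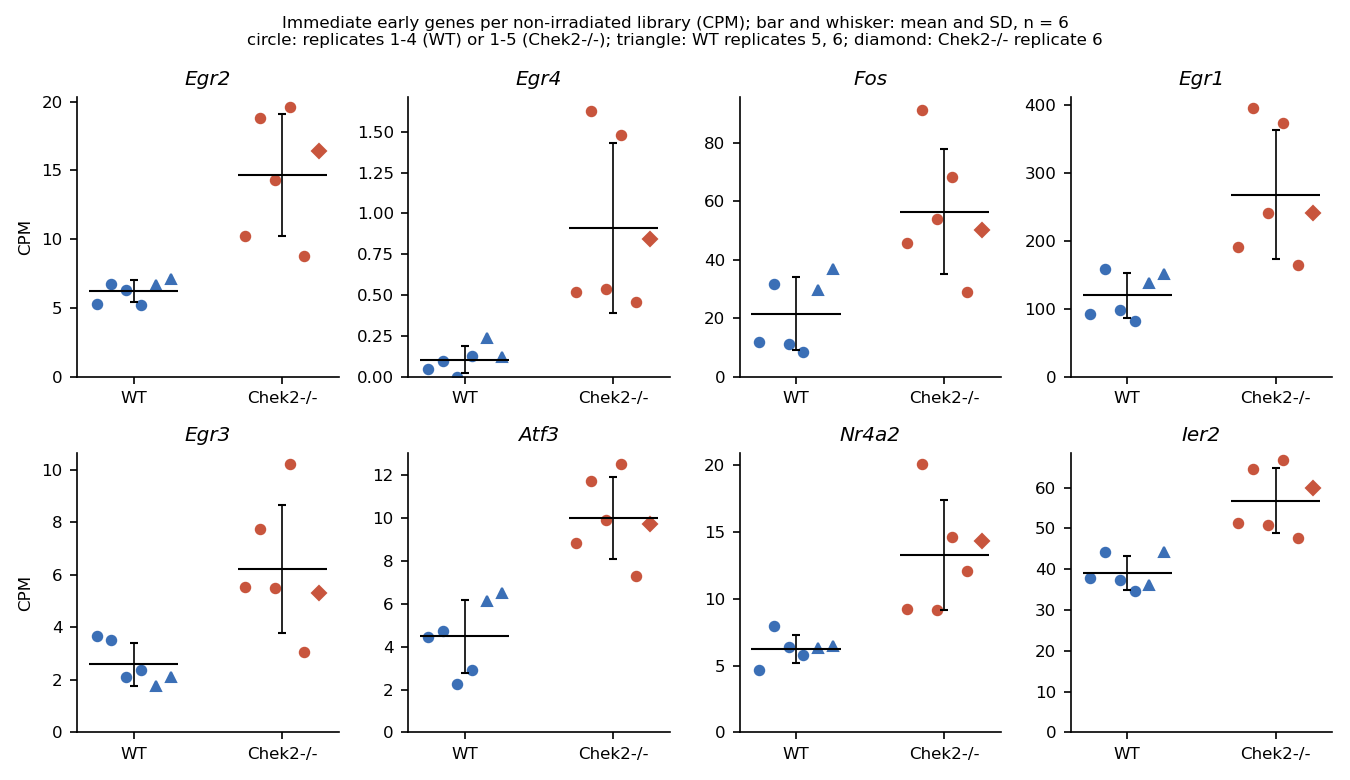
Level in CPM of 8 inducible genes in each non-irradiated library, with the mean and SD of 6 libraries (WT, wild-type). Egr2, Egr4, Egr1, Atf3, Nr4a2 and Ier2 separate the genotypes, and Fos and Egr3 overlap.

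The list of DNA damage kinases, sensors and CHEK2 substrates held 38 tested members. Chek2 was the 1 that passed the threshold, and the median was -0.04. E2f1, a cell cycle factor whose protein is a CHEK2 substrate, was lower (log2 fold change -0.33, adjusted p = 0.0236), and so was Pml (-0.28, adjusted p = 0.0426, and 0.0559 without Chek2-/- replicate 6), while Plk3 was at 0.36 (adjusted p = 0.0545). With the term for wild-type replicates 1 to 4 the log2 fold change was -0.29 for E2f1 and -0.22 for Pml (adjusted p = 0.314 and 0.412). Of 40 p53 target genes none passed the threshold, where 0.788% of all genes did, and the median was 0.03. At any fold change 3 of the 40 were higher, where 3.12% of all genes were. The cell cycle inhibitors Btg2 and Cdkn1a and the p53 activator Trp53inp1 were higher in Chek2-/- by 0.59, 0.47 and 0.32 (adjusted p = 0.019, 0.0308 and 0.0404), and Cdkn1a lay at 22, 25.2 and 36.6 CPM in wild-type and 31.8, 39.7 and 43.0 in Chek2-/-. After radiation they were lower in Chek2-/-, by -0.54, -0.89 and -0.72, and the p53 list had a median of -0.56. The log2 difference of Chek2-/- from wild-type was lower after radiation than without it, by -1.13, -1.36 and -1.04, past the test of the interaction of genotype and radiation in each gene. That test does not show a change of sign: without radiation the values were 0.52, 0.22 and 0.18 with the term for wild-type replicates 1 to 4 (adjusted p = 0.292, 0.515 and 0.531). Btg2 is also an immediate early gene.

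Germ cell genes were described in lists for growing and for early oocytes. None of 24 growing oocyte genes passed the threshold, where 0.788% of all genes did. All 24 had a log2 fold change under 0, with a median of -0.43, and of -0.29 without Chek2-/- replicate 6. Over all 26790 genes tested, 13843 had a log2 fold change above 0. The genes of a list share libraries, so their signs are not independent. The sum over the list was 9222 to 11959 CPM in wild-type, 8747 to 10096 in 5 Chek2-/- libraries and 4895 in replicate 6. Zp1, a zona pellucida protein, was at 338, 391 and 437 CPM in wild-type and at 180, 291 and 341 in Chek2-/- (-0.46, adjusted p = 0.0236). Gdf9, the oocyte growth factor, and Npm2, an oocyte histone chaperone, were at -0.53 and -0.44 (adjusted p = 0.0905 and 0.0618). Among 25 genes of primordial and early oocytes, 20 had a log2 fold change above 0 with a median of 0.13 (0.02 with the term for wild-type replicates 1 to 4), and the meiotic cohesin Smc1b was higher, at 77.5 to 121 CPM in wild-type and 108 to 142 in Chek2-/- (0.36, adjusted p = 0.0313). Sycp3, of the synaptonemal complex, was at 0.43 (adjusted p = 0.207) and Hormad1 at 0.94 (adjusted p = 0.161). In bulk ovaries fewer cells of a type and less RNA per cell cannot be told apart. With the term for wild-type replicates 1 to 4 no gene of either list passed an adjusted p of 0.05, although the median of the growing oocyte genes stayed at -0.43 and Zp1 at -0.46 (adjusted p = 0.254). Smc1b was then at 0.21 (adjusted p = 0.494).

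Somatic lists showed small differences in few members. Of 25 granulosa cell genes, Kitl, the ligand of the oocyte receptor KIT, was higher by 0.51 (adjusted p = 0.0387, and 0.091 without Chek2-/- replicate 6, its highest library), and Kctd14 and Inhbb, an inhibin subunit, were at -0.27 and -0.60 (adjusted p = 0.0579 and 0.0726). In the theca and steroid list, Star, which carries cholesterol into mitochondria, was higher by 0.56 (adjusted p = 0.016), and Nr5a1 and Srd5a1 were at -0.24 and -0.34 (adjusted p = 0.0528 and 0.0643). Among 16 stromal genes 4 were lower at any fold change where 2.22% of all genes were: the collagens Col1a1 and Col1a2 by -0.55 each (adjusted p = 0.0221 and 0.0112), the microfibril protein Mfap4 by -0.42 (adjusted p = 0.0363) and 1 more collagen. Col1a2 was at 1040, 1220 and 1565 CPM in wild-type and at 749, 878 and 992 in Chek2-/-, without overlap. Smooth muscle and pericyte genes had a median of -0.44, with Cspg4 and Notch3 lower (-0.59 and -0.47, adjusted p = 0.0205 and 0.0268) and Rgs5 at 0.34 (adjusted p = 0.102). Of the endothelial genes, Vwf was lower (-0.39, adjusted p = 0.0316), and Tek and Cldn5 were at 0.33 and 0.23 (adjusted p = 0.11 and 0.186). None of the genes of this paragraph passed an adjusted p of 0.05 with the term for wild-type replicates 1 to 4. The log2 fold change moved little under it for Star (0.49), Col1a1 (-0.48), Mfap4 (-0.46), Vwf (-0.43) and Inhbb (-0.61), more for Col1a2 (-0.41) and Notch3 (-0.38), and most for Cspg4 (-0.25) and Kitl (0.27).

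Markers of other tissues told which libraries held them. In the adrenal, kidney and pancreas list, Umod and Slc34a1, a kidney phosphate transporter, passed the threshold, with 72 and 19.9 CPM in Chek2-/- replicate 6 and at most 0.728 and 0.202 in wild-type. Without that library their adjusted p was 0.122 and 0.694. The pancreatic enzymes Cpa1 and Cela1 were at -0.78 and 0.17 (adjusted p = 0.154 and 0.701) and the adrenal enzyme Cyp21a1 at 0.63 (adjusted p = 0.658). Pck1, the gluconeogenic enzyme that stands in the adipocyte list, passed the threshold with 26.8 CPM in replicate 6 and at most 0.342 in wild-type, and its adjusted p without that library was 0.653, while Lipe was lower by -0.41 (adjusted p = 0.00887, and 0.276 with the term for wild-type replicates 1 to 4), and Plin1 and Ucp1 were at -1.05 and 2.14 (adjusted p = 0.124 and 0.134). Lrp2, megalin of the kidney tubule, was at 44.6 CPM in that library and its adjusted p was 0.663 without it. Of the oviduct and uterine list, Ovgp1, the oviduct glycoprotein, was higher by 0.85 (adjusted p = 0.0181) and kept an adjusted p of 0.0182 with the term for wild-type replicates 1 to 4. In irradiated ovaries Ovgp1 was not separated, at 3.17 to 7.88 CPM in wild-type and 3.94 to 5.03 in Chek2-/-. Sprr2f and Tekt1 were at 2.35 and -0.38 without radiation (adjusted p = 0.118 and 0.384). The erythroid genes had a median of 2.53, and of 0.27 without Chek2-/- replicate 5, and Slc4a1 and Hbb-bt had adjusted p of 0.0576 and 0.0859. Without that library their log2 fold changes were 0.39 and 0.27 (adjusted p = 0.913 and 0.874).

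The remaining lists held no gene past the threshold, where 0.788% of all genes passed it. Neutrophil genes, with a median of 0.09, of -0.64 without Chek2-/- replicate 5 and of 5.54 with the term for wild-type replicates 1 to 4, included Csf3r at 0.98, Cxcr2 at 0.33 and Ngp at -3.86 (adjusted p = 0.6, 0.633 and 0.804). Ngp was at 2.56 CPM in wild-type replicate 2 and at most 0.153 in the other non-irradiated wild-type libraries. The term is estimated over both treatments, so the median of 5.54 rests in part on irradiated libraries. Irradiated wild-type replicate 3 had 342 CPM of Ngp, 13.4 of Csf3r and 12.4 of Cxcr2. Macrophage genes had a median of -0.07, and of -0.28 without Chek2-/- replicate 6, with Cx3cr1 at 0.43, C1qc at -0.21 and Mrc1 at -0.23 (adjusted p = 0.447, 0.532 and 0.711). Surface epithelium genes had a median of -0.13, and of -0.38 without Chek2-/- replicate 6, with Wt1 at -0.27, Upk3b at -0.68 and Krt18 at 0.34 (adjusted p = 0.21, 0.269 and 0.325). Skeletal muscle genes had a median of 0.01, with Acta1 at 2.72, Actn3 at -0.26 and Myh3 at 1.3 (adjusted p = 0.0639, 0.0904 and 0.138). Genes of dividing cells had a median of -0.02, with Bub1b at -0.20, Cenpe at 0.16 and Birc5 at -0.11 (adjusted p = 0.361, 0.374 and 0.463), and interferon-stimulated genes one of -0.03, with Bst2 at -0.26, Oas3 at -0.32 and Ifit3 at -1.14 (adjusted p = 0.092, 0.334 and 0.546). In cholesterol synthesis, with a median of 0.03, Idi1 was higher by 0.42 (adjusted p = 0.0305, and 0.396 with the term for wild-type replicates 1 to 4), and Cyp51 was at 0.32 (adjusted p = 0.0562). Ribosomal protein genes had a median of -0.09, with Rpl27 higher by 0.26 (adjusted p = 0.0404, and 0.401 with that term) and Rpl19 and Rpl22 at -0.23 and -0.14 (adjusted p = 0.0807 and 0.11). Oxidative phosphorylation genes had a median of 0, with Atp5e, Atp5d and Ndufs3 at -0.11, -0.10 and -0.10 (adjusted p = 0.123, 0.191 and 0.205).

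A few other called genes are named although they stand outside the rule. Ntrk2, the receptor of brain-derived neurotrophic factor, was at 18.3 to 34.6 CPM in wild-type and 6.39 to 15.3 in Chek2-/- (-1.32, adjusted p = 0.00931, and 0.0842 with the term for wild-type replicates 1 to 4), with a single-cell ratio of 1.09 (1.01 to 1.18). Col6a4, a collagen chain, was at 79.1 to 118 and 30.9 to 65.1 CPM (-1.02, adjusted p = 0.00101, and 0.0219 with that term). It was under the fold limit with the term (-0.98), without Chek2-/- replicate 6 (-0.91) and after radiation (-0.88), and its single-cell ratio was 0.964 (0.91 to 1.02). Pabpn1l, an oocyte poly(A)-binding protein, was at 13.6 to 25.1 and 5.23 to 13.2 CPM (-1.05, adjusted p = 0.00806). With that term its adjusted p was 0.205, and without Chek2-/- replicate 6 it was under the fold limit with -0.94. It had a single-cell ratio of 0.326 (0.258 to 0.408). The single-cell libraries had 9666 retained cells in wild-type and 9091 in Chek2-/-, which shared 29 barcodes, and with 1 library a group they carry no test. Their intervals cover counting error only.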

How the data were processed

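RNA of 24 bulk ovary libraries, 6 in each of 4 groups, and of 4 single-cell libraries was sequenced, and groups follow the labels. The authors trimmed reads with Trim Galore 0.6.5 and quantified transcripts with Salmon 1.3.0 in nf-core/rnaseq 1.4.3dev, and deposited estimated counts per gene, rounded here to whole numbers. For single cells the authors deposited UMI counts made with Cell Ranger. Barcodes with at least 1000 genes, at most 20% mitochondrial and at most 50% ribosomal UMIs were summed per library, and doublets were not removed.

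Genes with at least 10 counts over the bulk libraries were tested with edgeR 4.0.16 in R 4.3.3 (TMM, quasi-likelihood test, 1 coefficient for each group, 24 libraries, Benjamini-Hochberg adjustment). The study used DESeq2, which is an alternative here (version 1.42.0), as is limma-voom (limma 3.58.1). The fit was tested on simulated data. A count of 3 corresponds to 0.092 to 0.152 CPM. Counting intervals are exact 95% limits and cover counting error only. Values after ± are the size of the log2 fold change divided by the square root of the quasi-likelihood F statistic. They rest on a spread estimated over all 24 libraries. The labels name mm10/GRCm38 and the study's methods a later Ensembl transcript release, so the gene models counted may differ from those whose GRCm38 coordinates are printed. GENCODE M21 named 44118 of 44674 gene identifiers. Labels do not say whether replicates are separate litters, so p-values measure the spread between these samples.

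Genes named are Chek2, the substrain genes, the 15 higher and 15 lower called genes of smallest adjusted p whose groups did not overlap, called genes within 5 Mb of Chek2, and for each list its called members and up to 3 more of smallest p. Genes named beyond that, such as Arc, Cxcl1, Ntrk2 and Col6a4, were chosen after their values were seen. Some genes that the rule names are not reported here. The comparison and the lists were chosen with earlier results of these data known. Replicate numbers were not taken to pair libraries of the genotypes, and the labels do not say whether they do.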

Additional observations from a re-analysis of the deposited data

Results flagged for a closer look

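Single libraries stood far from the 5 others of their group in the values below, given in CPM. For a gene chosen without regard to its values, such a gap arises by chance in about 1 in 20 groups. That rate does not hold here, since several of these genes were named because a library stood apart in them. In a gene near 0 a single count can also make such a gap. Chek2-/- replicate 6 accounted for 24 of the values. It was high in the kidney genes Kap (793), Napsa (167), Umod (72), Lrp2 (44.6), Pck1 (26.8) and Slc34a1 (19.9), in the Y-linked genes Ddx3y (0.768) and Eif2s3y (0.96), and in Ucp1 (0.423), Slpi (10.9), Rgs5 (38.8), Kitl (268), Mrc1 (12.1), Cx3cr1 (5.69) and Gm42427 (560). It was low in Xist (0.423), Kdm5c (163), Eif2s3x (199), Amh (31.2), Gdf9 (226), Npm2 (81.6), Birc5 (70.1) and Actn3 (13.1), and had no count of Gm17081 (0).

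Chek2-/- replicate 5 was high in the red blood cell genes Hbb-bt (1038) and Slc4a1 (83.3) and in the neutrophil receptor Csf3r (4.26). Chek2-/- replicate 2 was high in Cxcl1 (48), Il11 (4.12), Junb (111), Gm21451 (0.155) and Cyp2a22 (0.0388). In Chek2-/- replicate 1 Kctd14 was at 567, in replicate 3 Gm16867 was at 0.497 and Star at 15.6, and in replicate 4 Gm38378 was at 0.185. Wild-type replicate 1 stood apart in Bmp15 (125), Cyp51 (79.1), Idi1 (38.1), Tek (17.8), Dynlt1a (16.8) and Wt1 (202). Wild-type replicate 2 did so in Zfp36 (37.1), Crb1 (4.93) and Ngp (2.56), and wild-type replicate 5 in Ifit3 (28.8), Slpi (2.97) and Pck1 (0.342).

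The genotype difference changed with radiation, past an adjusted p of 0.05 for the interaction in edgeR, in 4 of the 138 genes named here and in 277 of all genes (1.03%). It was lower after radiation by a log2 of -1.13 for Btg2, -1.36 for Cdkn1a and -1.04 for Trp53inp1, and higher by 0.39 for the pseudogene Tmem181b-ps.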

How the results depend on the processing

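Without radiation, 211 genes passed the threshold. The number was 102 from the 12 non-irradiated libraries alone (58 higher) and 81 with DESeq2 (51 higher, 30 lower), and the higher genes were 100 with filterByExpr and 89 with limma-voom. With alternatives chosen after seeing the data, 41 genes passed with the term for wild-type replicates 1 to 4 (13 higher, 28 lower), 49 with that term and without both Chek2-/- libraries numbered 6 (18 and 31), and 27 against wild-type replicates 5 and 6 alone (5 and 22). At any fold change the 1430 genes became 785, 2507 with DESeq2, and 75, 115 and 39 in the last 3 fits. After radiation 353 of 639 remained in number with the term. Leaving out 1 library gave 96 to 288 genes in all, 60 to 232 higher, 36 to 65 lower and 573 to 1794 at any fold change. The lowest counts came without wild-type replicate 4, and the highest without Chek2-/- replicate 5 or wild-type replicate 5. With wild-type replicates 2 or 3 left out 109 and 120 genes passed, and 129 without Chek2-/- replicate 6. The causes were not tested. Chek2 passed in all 22 alternatives. With the term and without the libraries numbered 6, Kap turned to -0.37 and Gm4617 to 0.06, and Ide passed the fold limit with the term (-1.02). As a block, the replicate number gave 171 genes, 111 higher and 60 lower, and 2025 at any fold change. Same-numbered non-irradiated libraries of the genotypes correlated by -0.04 to 0.145 in their deviations, so the numbers were not taken to pair these libraries. For Chek2-/- replicates 1 and 5 the same-numbered wild-type library correlated most, and for replicates 2, 3, 4 and 6 another one did. Depth limits genes near 0.092 to 0.152 CPM, and 61 of the 160 higher and 18 of the 51 lower genes had means under 1 CPM in both groups.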

Other observations

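In the single-cell libraries without radiation, oocyte genes were lower in Chek2-/- than in wild-type. The ratio was 0.423 (95% counting interval 0.414 to 0.432) for Gdf9, 0.435 (0.42 to 0.451) for Zp1, 0.411 (0.397 to 0.424) for Npm2, 0.54 (0.528 to 0.552) for Sycp3 and 0.524 (0.511 to 0.538) for Smc1b. After radiation Zp1 was at 38.3 CPM of UMIs in wild-type and 36.0 in Chek2-/-, and Npm2 at 64.0 and 43.6, still lower in Chek2-/-. Gdf9, Sycp3, Smc1b and Bmp15 were then higher in Chek2-/-, Sycp3 at 48.4 in wild-type and 66.3 in Chek2-/-, Smc1b at 40.0 and 53.4, and Bmp15 at 5.71 and 7.57. Gdf9 was at 63.5 CPM in the Chek2-/- library without radiation and at 124 in the irradiated one. In bulk, Sycp3 and Smc1b had log2 fold changes of 0.43 and 0.36, the other way. The number of oocytes in each library was not compared, and with 1 library a group nothing was tested.

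Sycp3 was higher in Chek2-/- by 1.03 and Smc1b by 0.75 on the log2 scale after radiation in bulk (edgeR adjusted p = 0.00155 and 1.12e-05).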
